A study of Mus musculus with 6 samples.

Results

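The mouse genome carries 39 Hox genes in 4 clusters, and their transcript levels were compared between Rbbp4-/- and Rbbp4F/F embryonic stem cells. Members were every gene whose GENCODE M21 symbol is Hox, a cluster letter from a to d and a paralog number. These are 39 of the 51912 Ensembl genes in the deposited tables. They comprise 11 genes of Hoxa, 10 of Hoxb, 9 of Hoxc and 9 of Hoxd, and none was removed for a low level.

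Hox genes encode homeodomain transcription factors that give cells along the body axis and in the limbs their positional identity. Within a cluster, genes at one end (low paralog numbers) act in the head and neck region of the embryo and genes at the other end (high numbers) act in the trunk, tail and distal limb. Genes of the same number in different clusters are paralogs, descended from one ancestral gene. In embryonic stem cells the clusters are a classic target of Polycomb repression. RBBP4 is a histone-binding subunit of Polycomb repressive complex 2 and of other chromatin complexes, NuRD among them.

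Levels came from total RNA of 3 libraries of Rbbp4-/- cells, called the knockout below, and 3 libraries of Rbbp4F/F cells named as the control. Both groups are C57BL/6 embryonic stem cells. The labels do not give how or when Rbbp4 was deleted, whether the cells grew on feeder cells, or whether a group was 1 clone or separate cultures, so a p-value here measures only the spread between libraries. Values are FPKM, fragments per kilobase of transcript scaled to the library's total, which allow levels of different genes to be compared per length.

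Rbbp4 itself had 21.28, 12.73 and 11.09 FPKM in the knockout libraries, against 58.47, 56.97 and 61.75 FPKM in the control libraries. The groups did not overlap (log2 fold change -1.96, SE 0.23, limma adjusted p = 0.00182), and knockout replicate 1 kept the most transcript. That library also had the highest summed level of 8 stem cell markers, 2102 FPKM against 1492 and 1324 FPKM in the other knockout libraries, with 4291 to 4423 FPKM in the controls. Without knockout replicate 1, 24 Hox genes were called higher in place of 23, and 23.2% of all genes in place of 20.5%. Depth, estimated from the steps between low values, was 25300000 to 29000000 fragments per library, and a single fragment on 2 kb of transcript then amounts to 0.0199 to 0.0228 FPKM. mt-Co2, a mitochondrial gene that every cell uses, is listed at 0 in 2 knockout libraries. An exact 0 is therefore reported only as listed at 0. In bulk RNA, more cells with a transcript and more transcript per cell cannot be told apart.

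Hox genes of all 4 clusters rose in the knockout, from very low control levels. Of the 38 members with any value above 0, 23 rose and 0 fell (limma on log2(FPKM + 1), Benjamini-Hochberg adjusted p under 0.05 over 25947 genes), and 15 were not called. Over all genes tested, 20.5% were called higher and 11.1% lower. Among the 13612 genes whose mean over the 6 libraries lay in the same range as that of the tested Hox genes, 0.0033 to 1.67 FPKM, 10.3% were called higher and 3.64% lower. This range was matched only at its ends, and the spread of means within it was not. Its lower end is the mean of Hoxc8 alone. With median-ratio scaling the calls over all genes were 4293 higher and 3699 lower, in place of 5319 and 2873. At an unadjusted p under 0.05, limma placed 30 members higher and 0 lower. The share of all genes at that threshold was not computed, so these 2 counts have no background here.

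Other settings changed both the members' count and the background. A pseudocount of 0.1 gave 27 members higher where 21.1% of all genes were, and equal FPKM sums gave 24 where 24.8% were. Among genes with a mean of at least 0.1 FPKM, 19 of 26 tested members were higher against 29.7% of all genes, and with at least 1 FPKM in 3 libraries 5 of 5 were, against 37.2%. The filter of 1 FPKM admits a member only through its knockout libraries. The mean filter also draws on them, since Hoxa2 and Hoxa11, among others, passed it while listed at 0 in all controls. Neither count is therefore independent of the knockout level. No setting called a member lower, while it called 7.67% to 22.7% of all genes lower. The share of all genes called higher was 18.3% with upper-quartile scaling, 16.8% with the replicate number as a block, and 13.4% to 23.2% with 1 library left out.

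Separation of the libraries was wider than the calls. In 31 of the 39 members all knockout libraries exceeded all control libraries, and in 0 members were all below. Over all tested genes 28.8% had every knockout library above every control library, and in the same range of means, matched only at its ends, 18.2% did. The knockout mean was above the control mean in 38 members, and the remaining one, Hoxa6, was listed at 0 in all 6 libraries. Over all tested genes 61.5% had a log2 fold change above 0.

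The summed level of the 39 genes shows the size of the change. It was 21.17, 20.86 and 23.68 FPKM in the knockout libraries, against 3, 2.83 and 2.77 FPKM in the control libraries. The ratio of the group means was 7.64, and the knockout libraries differed from each other by less than the gap between the groups. The median log2 fold change was 0.34 for the 38 tested members and 0.041 for all tested genes. Because 1 is added before the logarithm and most members lie below 1 FPKM, this scale understates their change, and the median difference in FPKM was 0.27.

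Levels stayed low in absolute terms. In the knockout 7 members reached a mean of 1 FPKM, Hoxa7, Hoxb9, Hoxc13 and Hoxd9 among them, and in the control 0 did. The highest control mean was 0.697 FPKM, for Hoxd13. Of 117 values in each group (39 genes in 3 libraries), 8 were listed at 0 in the knockout and 66 in the control. 15 members, Hoxa6 among them, were listed at 0 in all 3 control libraries.

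**Figure D1:**
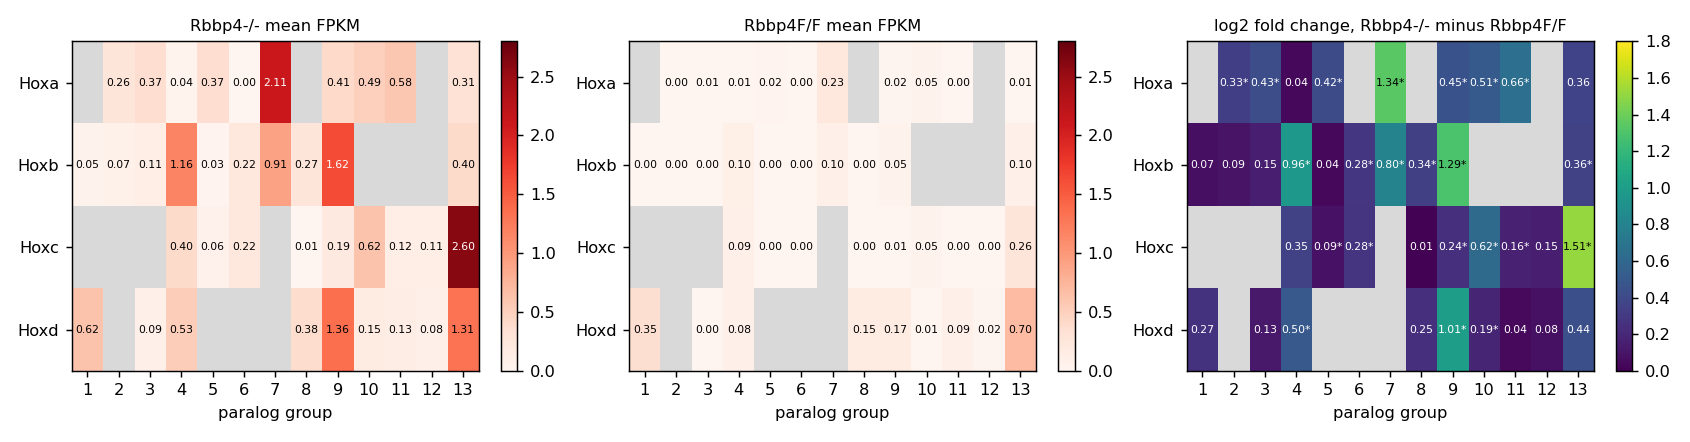
38 of the 39 Hox genes by cluster (rows) and paralog group (columns, grey where no value is drawn), with the mean FPKM of 3 Rbbp4-/- libraries on the left, the mean FPKM of 3 Rbbp4F/F libraries in the middle and the log2 fold change of FPKM + 1 on the right (asterisk: adjusted p under 0.05). Hoxc13 (2.60 FPKM) and Hoxa7 (2.11 FPKM) are high in the knockout, Hoxd13 (0.697 FPKM) is the highest in the control, and Hoxa6 is at 0 in both.

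The Hoxa cluster lies on chromosome 6 from 52155590 to 52260880 (GRCm38, minus strand). It had 8 of its 10 tested members called higher (80%, against 20.5% of all genes) and 0 lower (against 11.1%). Its summed level was 8.15, 8.12 and 7.90 FPKM in the knockout libraries, against 0.66, 0.52 and 0.46 FPKM in the control libraries. This is a ratio of means of 14.7, with the 3 knockout sums within 0.25 FPKM of each other.

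Hoxa7, which takes part in patterning the thoracic skeleton, had 2.55, 1.94 and 1.84 FPKM in the knockout libraries, against 0.26, 0.27 and 0.15 FPKM in the control libraries. The lowest knockout library lay well above the highest control library (log2 fold change 1.34, SE 0.14, limma adjusted p = 0.0012). Antisense exons of Hoxaas3 cover 20.4% of its exons, and because use of strand in counting is not given in the sources used here, reads of the pair cannot be told apart.

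Hoxa11, a gene of the forearm, kidney and uterus, had 0.73, 0.49 and 0.53 FPKM in the knockout libraries and was listed at 0 in all 3 control libraries (log2 fold change 0.66, SE 0.068, limma adjusted p = 0.00125). Every knockout library was above 0. Exons of the antisense gene Hoxa11os cover 35.0% of Hoxa11, and Hoxa11os itself was called higher, as described with the cluster's non-coding genes. Reads of this pair likewise cannot be told apart.

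Further called members of the cluster were Hoxa2, Hoxa3, Hoxa5, Hoxa9 and Hoxa10. Hoxa2, which sets the identity of the second pharyngeal arch, had 0.19, 0.27 and 0.32 FPKM in the knockout libraries and was listed at 0 in the controls. Hoxa5, required for lung development, had 0.39, 0.38 and 0.33 FPKM in the knockout libraries, against 0, 0.07 and 0 FPKM in the control libraries. The calls of Hoxa3 and Hoxa9 did not hold in every alternative, and both were lost when any of the control libraries was left out (adjusted p 0.123 to 0.147). The Hoxa3 call was also lost without knockout replicate 1 or 2 (adjusted p 0.127 and 0.155), and the Hoxa9 call without knockout replicate 2 or 3 (adjusted p 0.0899 and 0.147). Hoxa3 had 0.51, 0.48 and 0.11 FPKM in the knockout libraries, against 0, 0.02 and 0 FPKM in the control libraries, so that knockout replicate 3 was low. Hoxa9 had 0.15, 0.66 and 0.41 FPKM in the knockout libraries, against 0.05, 0 and 0 FPKM in the control libraries.

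Both uncalled members of Hoxa were low. Hoxa4 had 0.03, 0.05 and 0.03 FPKM in the knockout libraries, against 0.03, 0 and 0 FPKM in the control libraries, which is about 1 fragment per library. Hoxa13, a gene of the digits and hindgut, had 0.59, 0.10 and 0.24 FPKM in the knockout libraries, against 0, 0 and 0.02 FPKM in the control libraries. Its groups did not overlap, but the spread within the knockout was wide (log2 fold change 0.36, SE 0.13, limma adjusted p = 0.0888).

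Hoxa5, Hoxa6 and Hoxa7 are neighbours on the same strand with very different knockout levels, so their promoters are printed, together with that of Hoxd9, a strongly called gene of another cluster. Their knockout means were 0.367 FPKM for Hoxa5, 0 for Hoxa6 and 2.11 FPKM for Hoxa7. Each sequence runs 5′ to 3′ on the gene's strand, 250 bases before to 50 after the RefSeq start on GRCm38.p6, with every CG dinucleotide in capitals. The windows are chr6:52204538-52204837 for Hoxa5, chr6:52208623-52208922 for Hoxa6 and chr6:52218524-52218823 for Hoxa7, all on the minus strand, and chr2:74697513-74697812 on the plus strand for Hoxd9.
Hoxa5: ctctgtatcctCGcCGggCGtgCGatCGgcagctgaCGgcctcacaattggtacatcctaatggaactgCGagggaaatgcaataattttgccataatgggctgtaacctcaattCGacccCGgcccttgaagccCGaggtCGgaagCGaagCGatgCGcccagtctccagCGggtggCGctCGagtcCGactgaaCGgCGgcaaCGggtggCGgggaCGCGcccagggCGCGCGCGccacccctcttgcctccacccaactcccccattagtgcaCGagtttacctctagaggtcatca
Hoxa6: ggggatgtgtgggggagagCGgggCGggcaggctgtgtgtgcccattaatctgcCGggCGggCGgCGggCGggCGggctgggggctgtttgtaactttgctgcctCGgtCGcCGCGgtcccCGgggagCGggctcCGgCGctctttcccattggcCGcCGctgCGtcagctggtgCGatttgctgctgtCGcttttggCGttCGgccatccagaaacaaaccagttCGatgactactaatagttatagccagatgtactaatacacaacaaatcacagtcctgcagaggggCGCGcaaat
Hoxa7: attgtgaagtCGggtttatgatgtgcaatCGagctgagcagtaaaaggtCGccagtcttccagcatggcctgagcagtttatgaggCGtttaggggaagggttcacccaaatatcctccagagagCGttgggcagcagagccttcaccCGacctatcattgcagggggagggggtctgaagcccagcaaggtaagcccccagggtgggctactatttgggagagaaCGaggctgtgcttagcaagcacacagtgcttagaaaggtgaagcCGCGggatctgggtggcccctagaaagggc
Hoxd9: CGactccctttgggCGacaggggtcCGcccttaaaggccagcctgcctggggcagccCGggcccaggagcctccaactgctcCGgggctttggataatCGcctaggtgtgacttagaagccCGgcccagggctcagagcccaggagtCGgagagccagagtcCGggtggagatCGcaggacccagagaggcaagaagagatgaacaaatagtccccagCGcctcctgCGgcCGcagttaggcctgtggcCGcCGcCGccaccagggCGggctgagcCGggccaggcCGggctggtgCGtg
The windows hold 29 CG dinucleotides for Hoxa5, 26 for Hoxa6, 9 for Hoxa7 and 20 for Hoxd9. Hoxa6, listed at 0 in every library, thus has nearly as many as Hoxa5, and Hoxa7, the highest of the 3 neighbours, has the fewest. The Hoxa7 window lies inside the gene as annotated in GENCODE M21, with 5 transcripts and its 5′ end at 52221854. Other starts of Hoxa7 were not examined, so its CG count and motif matches hold for this window only.

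RefSeq entries were matched for 22 of the 39 members, with 24 promoter windows in all. These held 4 to 45 CG dinucleotides with a median of 14.5, against a median of 7 over 32841 promoters of the same length. The 13 windows of 12 members called higher had a median of 14, and the 11 windows of 10 other members had a median of 20, with ranges of 4 to 29 and 4 to 45. The motif TTTATG, the core recognised by Cdx proteins, was found on either strand in 5 of the 24 windows (20.8%), against 11.9% of all promoters. It occurs 2 times in the Hoxa7 window and 0 times in those of Hoxa5, Hoxa6 and Hoxd9. TGATNNAT, a Hox-Pbx site, was found in 4 of 24 windows (16.7%), against 8.85% of all, and overlapped TTTATG in 0 windows. The retinoic acid receptor direct repeat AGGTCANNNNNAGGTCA was found in 0 of 24 windows, against 0.009% of all. A match is a description of the letters only.

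The Hoxb cluster lies on chromosome 11 from 96194316 to 96368256 (plus strand). It had 6 of 10 members called higher (60%, against 20.5% of all genes) and 0 lower (against 11.1%). Its summed level was 4.14, 4.12 and 6.30 FPKM in the knockout libraries, against 0.42, 0.31 and 0.30 FPKM in the control libraries, a ratio of means of 14.1. Knockout replicate 3 was the highest of its group, and without it the ratio was 12.0.

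Hoxb9, which acts in the thoracic skeleton and mammary gland, had 1.16, 1.30 and 2.40 FPKM in the knockout libraries, against 0, 0.04 and 0.11 FPKM in the control libraries. It had the highest mean of the cluster, and the high value of knockout replicate 3 is the largest part of that library's Hoxb excess (log2 fold change 1.29, SE 0.19, limma adjusted p = 0.0040).

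Hoxb7 showed the smallest p of the cluster. Its level was 0.93, 0.82 and 0.99 FPKM in the knockout libraries, against 0.03, 0.15 and 0.11 FPKM in the control libraries, so that the groups were far apart and the knockout libraries close together (log2 fold change 0.80, SE 0.078, limma adjusted p = 0.00102, ratio of means 9.45). Hoxb4, known for its effect on expansion of blood stem cells, had 0.77, 1.23 and 1.48 FPKM in the knockout libraries, against 0.18, 0.10 and 0.02 FPKM in the control libraries. These correspond to about 48, 77 and 91 fragments in the knockout libraries and about 12, 6 and 1 in the control libraries, with no overlap between the groups (log2 fold change 0.96, SE 0.14, limma adjusted p = 0.0045, ratio of means 11.6).

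Hoxb6, Hoxb8 and Hoxb13 were the other called members. Hoxb8 had 0.33, 0.15 and 0.33 FPKM in the knockout libraries and was listed at 0 in the controls. Hoxb13, the most posterior gene of the cluster, had 0.45, 0.30 and 0.46 FPKM in the knockout libraries, against 0.21, 0.02 and 0.06 FPKM in the control libraries. Its call was lost without knockout replicate 1 or 3 or without control replicate 2 or 3 (adjusted p 0.0718 to 0.0910). Hoxb6, with 0.14, 0.14 and 0.39 FPKM in the knockout libraries and 0 in every control library, lost its call in 7 alternatives, the removal of any control library and of knockout replicate 1 or 2 among them (adjusted p 0.0586 to 0.137).

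4 anterior or central members of Hoxb were not called, namely Hoxb1, Hoxb2, Hoxb3 and Hoxb5. All 4 were listed at 0 in the 3 control libraries. Their knockout means were 0.053 FPKM for Hoxb1, 0.067 FPKM for Hoxb2, 0.113 FPKM for Hoxb3 and 0.030 FPKM for Hoxb5. Hoxb1, Hoxb2 and Hoxb3, regulators of hindbrain segments, were above 0 in every knockout library, whereas Hoxb5 was listed at 0 in knockout replicate 1. With limma, Hoxb1 and Hoxb3 passed without knockout replicate 2 (adjusted p 0.0176 and 0.0154), and Hoxb2 passed when any of the knockout libraries was left out (adjusted p 0.0096 to 0.0496). Exons of the antisense gene Hoxb3os cover 52.9% of Hoxb3 and 27.3% of Hoxb2.

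The Hoxc cluster lies on chromosome 15 from 102921103 to 103036852 (plus strand). It had 6 of 9 members called higher (66.7%, against 20.5% of all genes) and 0 lower (against 11.1%). Its summed level was 4.43, 4.33 and 4.25 FPKM in the knockout libraries, against 0.57, 0.25 and 0.41 FPKM in the control libraries, a ratio of means of 10.6. More of this sum came from 1 gene than in the other clusters, since Hoxc13 alone averaged 2.60 FPKM in the knockout.

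Hoxc13, a regulator of hair and nail keratin genes, had the smallest p of all Hox genes. Its level was 2.53, 2.73 and 2.55 FPKM in the knockout libraries, against 0.27, 0.18 and 0.34 FPKM in the control libraries. This is about 150, 163 and 150 fragments in the knockout libraries and about 17, 10 and 20 in the control libraries. The knockout libraries were nearly alike and the control libraries were all low (log2 fold change 1.51, SE 0.12, limma adjusted p = 6.07e-04, ratio of means 9.89).

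Hoxc10, a gene of the lumbar spinal cord and hindlimb, had 0.56, 0.53 and 0.77 FPKM in the knockout libraries, against 0.06, 0.02 and 0.07 FPKM in the control libraries. The groups were far apart (log2 fold change 0.62, SE 0.073, limma adjusted p = 0.00185, ratio of means 12.4). Exons shared with Hoxc5 cover 8.7% of Hoxc10. Hoxc11 was low, with 0.15, 0.10 and 0.11 FPKM or about 7, 5 and 5 fragments in the knockout libraries, and was listed at 0 in all 3 control libraries (log2 fold change 0.16, SE 0.028, limma adjusted p = 0.0073).

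Hoxc5, Hoxc6 and Hoxc9 were also called, with knockout means of 0.063, 0.217 and 0.193 FPKM. Exons shared with Hoxc10, whose knockout mean was 0.62 FPKM, cover 5.37% of Hoxc5, and reads of that part cannot be told apart. Hoxc5 and Hoxc6 were listed at 0 in all controls, and Hoxc9 had 0.02, 0 and 0 FPKM in the control libraries. The Hoxc9 call was lost when any control library was left out (adjusted p 0.0768 to 0.0880), and the Hoxc6 call without control replicate 1 or 3 (adjusted p 0.0511 to 0.0519).

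Hoxc4, Hoxc8 and Hoxc12 were not called. Hoxc4 had 0.48, 0.57 and 0.15 FPKM in the knockout libraries, against 0.22, 0.05 and 0 FPKM in the control libraries, so that its groups overlapped. Hoxc12 had 0.19, 0.05 and 0.10 FPKM in the knockout libraries and was listed at 0 in the controls. Hoxc8, in the middle of the cluster, was listed at 0 in 5 of the 6 libraries and had 0.02 FPKM in knockout replicate 2. Hoxc4 passed without knockout replicate 3 (adjusted p = 0.0361), and Hoxc12 without knockout replicate 1 or 2 (adjusted p 0.0351 and 0.0340).

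The Hoxd cluster lies on chromosome 2 from 74668310 to 74765142 (plus strand). It had 3 of 9 members called higher (33.3%, against 20.5% of all genes) and 0 lower (against 11.1%). Its summed level was 4.45, 4.29 and 5.23 FPKM in the knockout libraries, against 1.35, 1.75 and 1.60 FPKM in the control libraries, a ratio of means of 2.97. Hoxd started from the highest control level of the clusters. It held 54.7% of the summed control mean of all Hox genes and 21.3% of the knockout mean, where Hoxa held 19.1% of the control mean and 36.8% of the knockout mean. The difference between clusters was not tested. Without knockout replicate 1, 5 members of Hoxd were called higher, where 23.2% of all genes were. When any control library was left out the count was 2, where 13.4% to 14.3% of all genes were called higher. With the replicate number as a block it was also 2, where 16.8% of all genes were.

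Hoxd9, which acts in the forelimb and the lumbar spine, had the smallest p of the cluster. Its level was 1.57, 1.30 and 1.20 FPKM in the knockout libraries, against 0.22, 0.13 and 0.16 FPKM in the control libraries, or about 79, 66 and 60 against about 12, 6 and 8 fragments. The groups were clearly separate (log2 fold change 1.01, SE 0.10, limma adjusted p = 0.00112, ratio of means 7.98).

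Hoxd4, a gene of the hindbrain and neck vertebrae, had 0.43, 0.47 and 0.70 FPKM in the knockout libraries, against 0.05, 0.16 and 0.03 FPKM in the control libraries (log2 fold change 0.50, SE 0.088, limma adjusted p = 0.0078). No library of one group reached the other, but other annotated genes cover 52.3% of the Hoxd4 exons, Hoxd3 among them, so the split of reads between Hoxd3 and Hoxd4 is uncertain. Hoxd10, a gene of lumbar motor neurons, had 0.24, 0.09 and 0.12 FPKM in the knockout libraries, against 0, 0.03 and 0 FPKM in the control libraries. Its call was near the threshold (log2 fold change 0.19, SE 0.054, limma adjusted p = 0.0450) and was lost without knockout replicate 3 or without any of the control libraries (adjusted p 0.0892 to 0.137).

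Hoxd13, the gene of digit formation, had the highest mean of the cluster over all 6 libraries and the highest control level of all Hox genes, while its knockout mean of 1.31 FPKM lay below the 1.36 FPKM of Hoxd9. It had 0.94, 1.38 and 1.62 FPKM in the knockout libraries, against 0.77, 0.70 and 0.62 FPKM in the control libraries. The groups did not overlap, with a ratio of means of 1.89, and the difference did not pass the test (log2 fold change 0.44, SE 0.15, limma adjusted p = 0.0757). Without knockout replicate 1, the lowest of its group, the adjusted p was 0.0154.

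The other uncalled members of Hoxd were Hoxd1, Hoxd3, Hoxd8, Hoxd11 and Hoxd12. Hoxd1, at the anterior end, had 0.90, 0.50 and 0.47 FPKM in the knockout libraries, against 0.15, 0.34 and 0.56 FPKM in the control libraries, so that the groups overlapped. Hoxd8 had 0.26, 0.26 and 0.62 FPKM in the knockout libraries, against 0.16, 0.15 and 0.14 FPKM in the control libraries, with no overlap and an adjusted p of 0.135 in limma. Hoxd11 had 0, 0.11 and 0.28 FPKM in the knockout libraries, against 0, 0.19 and 0.09 FPKM in the control libraries, with full overlap. Hoxd12 had 0.10, 0 and 0.13 FPKM in the knockout libraries, against 0, 0.05 and 0 FPKM in the control libraries, again with overlap. Hoxd3, whose exons are covered to 62.9% by other genes, had 0.01, 0.18 and 0.09 FPKM in the knockout libraries and was listed at 0 in the controls. Hoxd3 passed without knockout replicate 1 (adjusted p = 0.0282), and Hoxd8 without knockout replicate 3 (adjusted p = 0.0225).

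**Figure D2:**
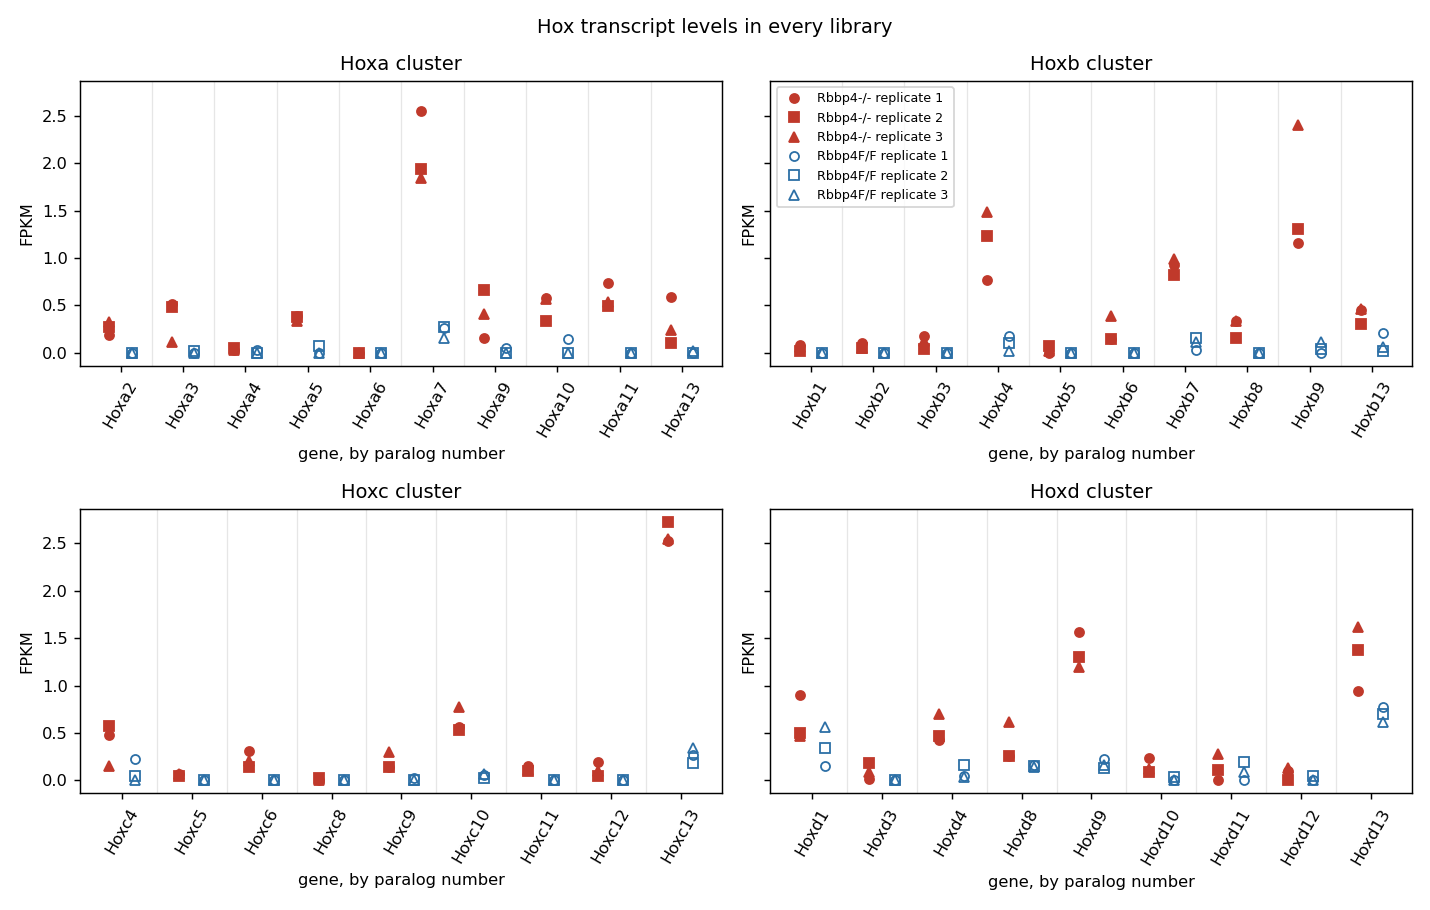
FPKM of 38 of the 39 Hox genes in each of the 6 libraries, in a panel per cluster with genes ordered by paralog number, Rbbp4-/- libraries as filled red and Rbbp4F/F libraries as open blue symbols. The red points of Hoxa7, Hoxc13 and Hoxd9 lie far above the blue ones, whereas those of Hoxd1 and Hoxd11 overlap.

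**Figure D3:**
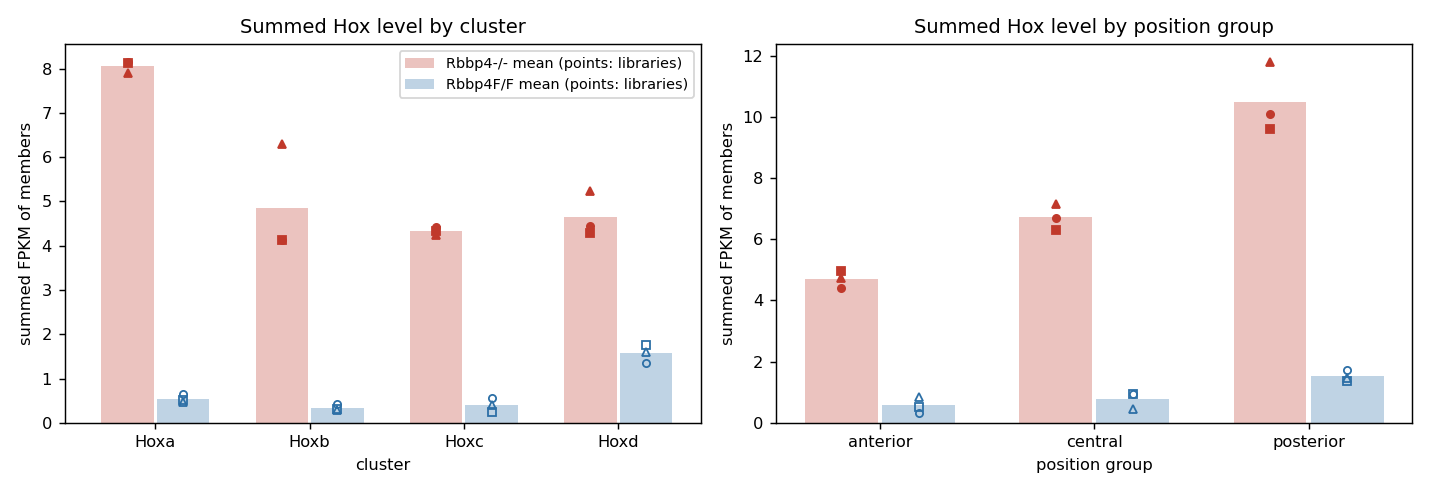
Summed FPKM of the members of each cluster (left) and each position group (right; paralog groups 1 to 3, 4 to 8 and 9 to 13), with a bar at the group mean and a point per library, Rbbp4-/- in red left of Rbbp4F/F in blue. The knockout sums are 7.90 to 8.15 FPKM for Hoxa and 4.12 to 6.30 FPKM for the other clusters, and the control sums are 1.35 to 1.75 FPKM for Hoxd and 0.25 to 0.66 FPKM for the others.

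By paralog number, called members were spread over the whole axis. Among the anterior groups 1 to 3, 3 of 8 members were called higher, among the central groups 4 to 8, 9 of 14 tested, and among the posterior groups 9 to 13, 11 of 16. These are 37.5%, 64.3% and 68.8%, against 20.5% of all genes. No group of positions had a member called lower, where 11.1% of all genes were, and the differences in these shares were not tested. The median log2 fold change was 0.21 for anterior, 0.31 for central and 0.40 for posterior members. Without knockout replicate 2 the anterior count was 5. Without control replicate 2 or control replicate 3 the posterior count was 7 and the anterior count was 2. The shares of all genes called higher in these 3 runs were 15.5%, 14.2% and 14.3%.

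The summed levels were higher in the knockout in all 3 position groups, which hold 8, 15 and 16 members. Anterior members summed to 4.40, 4.96 and 4.74 FPKM in the knockout libraries, against 0.33, 0.52 and 0.85 FPKM in the control libraries. Central members summed to 6.69, 6.29 and 7.15 FPKM in the knockout libraries, against 0.93, 0.95 and 0.45 FPKM in the control libraries. Posterior members summed to 10.08, 9.61 and 11.79 FPKM in the knockout libraries, against 1.74, 1.36 and 1.47 FPKM in the control libraries. The ratios of means were 8.29 for anterior, 8.64 for central and 6.89 for posterior members, so they did not follow the order of the medians. In none of the 3 did a knockout library fall near a control library.

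Single paralog groups behaved unevenly, and their counts of few members stand against 20.5% of all genes called higher. All 4 members of group 9 (Hoxa9, Hoxb9, Hoxc9 and Hoxd9) and all 3 of group 10 were called higher, as were both members of group 7 and both tested members of group 6. The count of group 9 was 2 when any control library was left out, because the calls of Hoxa9 and Hoxc9 were then lost, and that of group 10 was 2, without Hoxd10. The count of group 6 was 0 without control replicate 1 or 3, and both calls of group 7 held in every omission of a library. With 1 control library left out, 13.4% to 14.3% of all genes were called higher. Group 9 summed to 3.02, 3.4 and 4.31 FPKM in the knockout libraries, against 0.29, 0.17 and 0.27 FPKM in the control libraries, a ratio of means of 14.7. In group 12, 0 of 2 members were called. In group 13, Hoxb13 and Hoxc13 were called and Hoxa13 and Hoxd13 were not, although all 4 had every knockout library above every control library. In group 8, Hoxb8 was called and Hoxc8 and Hoxd8 were not.

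The order of the members was alike in the groups. Over the 39 genes, Spearman's rank correlation was 0.78 between the knockout mean and the control mean, 0.85 to 0.88 between knockout libraries and 0.64 to 0.83 between control libraries. Genes are not independent replicates, and the points share libraries and depth. The coefficient between paralog number and the knockout mean was 0.18 over 39 genes, and between paralog number and the log2 fold change 0.15 over 38. These coefficients describe a steady trend along the axis only, and single paralog groups ranged from a mean knockout sum of 0.19 FPKM for group 12 to 4.63 FPKM for group 13.

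**Figure D4:**
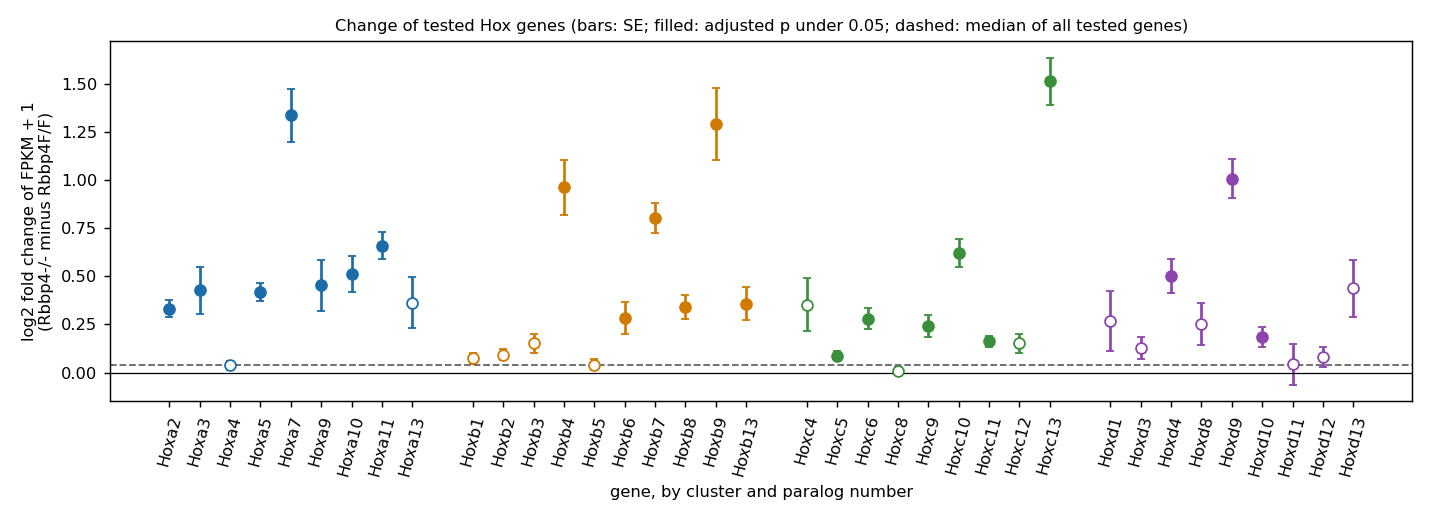
Log2 fold change of FPKM + 1, Rbbp4-/- minus Rbbp4F/F, with its standard error, for tested Hox genes coloured by cluster and ordered by paralog number, filled where the adjusted p is under 0.05, with a dashed line at 0.041, the median of all tested genes. The filled points include Hoxc13 at 1.51 and Hoxa7 at 1.34, and the points drawn all lie above 0.

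Overlap with other annotated genes touched part of the set. 10 members share at least 10% of their exonic length with another gene. Among the 28 tested members under that limit, 18 were called higher and 0 lower, with 4 of 5 in Hoxa, 6 of 8 in Hoxb, 6 of 9 in Hoxc and 2 of 6 in Hoxd. Over all tested genes, whatever their overlap, 20.5% were called higher and 11.1% lower. A share limited to genes under that limit was not computed. Runs of 50 bases common to transcripts of different Hox genes covered 11.3% of Hoxd4 and 8.11% of Hoxd3, 6.40% of Hoxc10 and 3.92% of Hoxc5, and under 1% of every other member.

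The clusters also hold other genes, among them antisense RNAs and microRNAs. Of 46 such genes, 36 were listed at 0 in all 6 libraries, including Mir10a, Mir10b, Mir196b and Hotair, and of the 10 tested 4 were higher (40.0%, against 20.5% of all genes) and 0 lower. Hoxa11os, the antisense transcript of Hoxa11, had 0.32, 0.37 and 0.38 FPKM in the knockout libraries and was listed at 0 in the controls (log2 fold change 0.44, SE 0.036, limma adjusted p = 6.49e-04). Gm53, a long non-coding RNA gene between Hoxb13 and Hoxb9, averaged 2.84 ± 0.256 FPKM in the knockout and 0.477 ± 0.15 FPKM in the control (SD, n = 3 each; log2 fold change 1.38, SE 0.15, limma adjusted p = 0.00138). It was above all Hoxb members in the knockout. Gm15050, an antisense gene of Hoxa, had 0.39, 0.39 and 0.13 FPKM in the knockout libraries and was listed at 0 in the controls (limma adjusted p = 0.0209). A further gene, Hotairm1, an antisense gene of Hoxa, had 1.42, 3.66 and 0.69 FPKM in the knockout libraries and was listed at 0 in the controls. Both calls were lost without knockout replicate 1 or any control library (adjusted p 0.0685 to 0.108), as was that of Gm15050 without knockout replicate 2, and the count was 2 without knockout replicate 1 or any control library.

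Outside the clusters the shares called lay near or below those of all genes. Within 200 kb of a cluster, 24 genes were tested, of which 3 rose and 3 fell, 12.5% in each direction against 20.5% and 11.1% of all genes. All 3 that rose lie beside Hoxb. Ttll6, a tubulin glutamylase gene 28.9 kb from the cluster, averaged 11.7 ± 0.575 FPKM in the knockout and 0.453 ± 0.134 FPKM in the control (SD, n = 3 each; log2 fold change 3.13, SE 0.14, limma adjusted p = 1.99e-04). Its change exceeds that of every Hox gene on the log2(FPKM + 1) scale. That scale understates the change of members below 1 FPKM, so the ranking holds for this scale only. Ube2z, a ubiquitin-conjugating enzyme gene 129 kb away, averaged 190 ± 8.76 FPKM in the knockout and 116 ± 0.614 FPKM in the control (SD, n = 3 each; limma adjusted p = 5.64e-04). Calcoco2, an autophagy receptor gene 82.4 kb away, averaged 146 ± 7.55 FPKM in the knockout and 48.2 ± 19.4 FPKM in the control (SD, n = 3 each; limma adjusted p = 0.0071). Beside Hoxa, Skap2 fell to 11.9 ± 1.28 FPKM in the knockout, against 17.1 ± 0.988 FPKM in the control (SD, n = 3 each; limma adjusted p = 0.0125), a call lost without control replicate 2 (adjusted p = 0.0528) and with equal FPKM sums (adjusted p = 0.0565). Without knockout replicate 1, 6 genes rose, and without knockout replicate 2 or any control library 1 fell. With equal FPKM sums 7 rose, and with median-ratio scaling 5 fell.

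Genes that act upstream of the clusters or together with Hox proteins were described from lists chosen for their roles. Cdx proteins activate central and posterior Hox genes in the embryo, and of 6 Cdx and ParaHox genes 4 rose (66.7%, against 20.5% of all genes) and 0 fell, with a median log2 fold change of 0.62. Cdx2 had 1.40, 1.77 and 1.39 FPKM in the knockout libraries, against 0, 0.12 and 0.06 FPKM in the control libraries (limma adjusted p = 6.56e-04). Cdx4 averaged 0.503 ± 0.0839 FPKM in the knockout and 0.117 ± 0.0896 FPKM in the control (SD, n = 3 each; limma adjusted p = 0.0093). Gsx2, a ParaHox gene of the forebrain, had 1.03, 0.66 and 0.40 FPKM in the knockout libraries and was listed at 0 in the controls (limma adjusted p = 0.0085).

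Retinoic acid switches on anterior Hox genes in differentiating stem cells. Of 18 genes of its pathway 4 rose and 4 fell, with a median log2 fold change of -0.034. This is 22.2% in each direction, and the share that rose is near the 20.5% of all genes, where 11.1% fell. Crabp2, a retinoic acid carrier, averaged 1.49 ± 0.259 FPKM in the knockout and 9.64 ± 0.891 FPKM in the control (SD, n = 3 each; log2 fold change -2.10, limma adjusted p = 4.06e-04). Rarg, a receptor gene, averaged 22.9 ± 2.01 FPKM in the knockout and 65.5 ± 9.03 FPKM in the control (SD, n = 3 each; limma adjusted p = 5.82e-04). Rdh10, which makes the precursor retinaldehyde, went the other way, with 4.33 ± 0.418 FPKM in the knockout and 0.797 ± 0.188 FPKM in the control (SD, n = 3 each; limma adjusted p = 0.0012). The count that rose was 2 without knockout replicate 1 or 3, control replicate 2 or with median-ratio scaling, and 1 without knockout replicate 2 or control replicate 1. Without knockout replicate 1, 7 fell.

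Among 9 genes of the Pbx, Meis and Pknox families, whose products bind DNA with Hox proteins, 4 rose and 2 fell (median log2 fold change 0.71). These are 44.4% and 22.2%, against 20.5% and 11.1% of all genes. Meis3 averaged 10.2 ± 0.994 FPKM in the knockout and 3.59 ± 0.257 FPKM in the control (SD, n = 3 each; limma adjusted p = 8.06e-04). Meis1 averaged 5.93 ± 0.642 FPKM in the knockout and 2.27 ± 0.542 FPKM in the control (SD, n = 3 each; limma adjusted p = 0.0058). Pbx2 fell, to 31.4 ± 1.73 FPKM in the knockout, against 42.3 ± 2.87 FPKM in the control (SD, n = 3 each; limma adjusted p = 0.0084). Without knockout replicate 2 or 3 or control replicate 1, 1 of the 9 fell.

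Genes of the Polycomb repressive complexes, which keep Hox clusters silent, included 10 of 30 that rose and 5 that fell, with a median log2 fold change of 0.14. These are 33.3% and 16.7%, against 20.5% and 11.1% of all genes. Yaf2, a subunit of a variant of complex 1, averaged 18.7 ± 2.28 FPKM in the knockout and 5.92 ± 0.394 FPKM in the control (SD, n = 3 each; limma adjusted p = 5.03e-04). Phc2, a complex 1 subunit, averaged 35.8 ± 1.72 FPKM in the knockout and 20.05 ± 0.491 FPKM in the control (SD, n = 3 each; limma adjusted p = 5.40e-04). Ezh2, the H3K27 methyltransferase of complex 2, fell to 37.7 ± 1.31 FPKM in the knockout, against 62.2 ± 4.0 FPKM in the control (SD, n = 3 each; limma adjusted p = 9.67e-04). The count that rose was 6 without knockout replicate 2 or 3, 5 without control replicate 1 and 4 without control replicate 2 or 3, and with median-ratio scaling 7 rose and 7 fell, where 16.5% of all genes rose and 14.3% fell.

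Of 14 Trithorax and H3K27 demethylase genes, which oppose Polycomb at Hox clusters, 5 rose and 3 fell (median log2 fold change 0.22). These are 35.7% and 21.4%, against 20.5% and 11.1% of all genes. Dpy30 fell to 93.4 ± 8.34 FPKM in the knockout, against 198 ± 9.53 FPKM in the control (SD, n = 3 each; limma adjusted p = 4.90e-04). Wdr5 fell to 56.7 ± 4.80 FPKM in the knockout, against 103 ± 0.521 FPKM in the control (SD, n = 3 each; limma adjusted p = 6.79e-04). Both encode shared subunits of H3K4 methyltransferase complexes. The demethylase gene Kdm6a rose, with 12.9 ± 1.56 FPKM in the knockout and 5.59 ± 0.184 FPKM in the control (SD, n = 3 each; limma adjusted p = 0.0013).

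**Figure D5:**
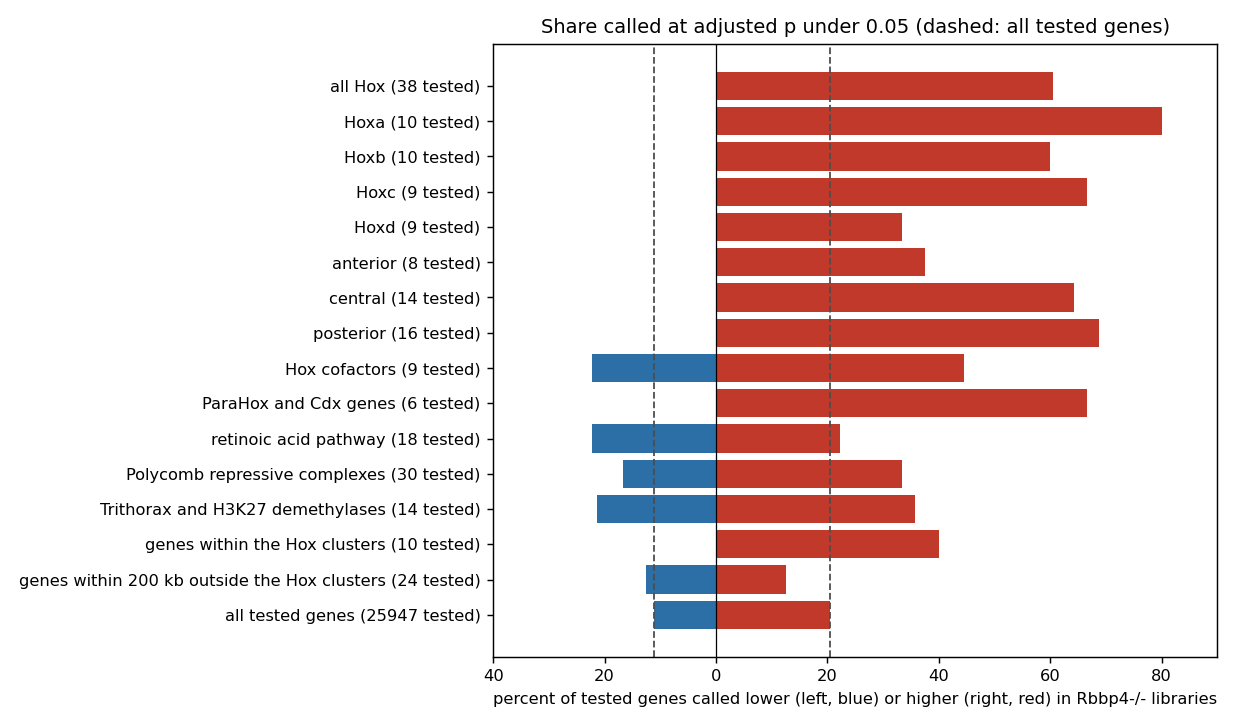
Percentage of tested genes called higher (right, red) and lower (left, blue) in Rbbp4-/- relative to Rbbp4F/F, for the Hox clusters and position groups, the related lists, neighbouring genes and all genes, with dashed lines at 20.5% and 11.1%, the shares of all tested genes. All 4 Hox clusters have 0 members called lower, with 8 of 10 Hoxa and 3 of 9 Hoxd members higher, while the retinoic acid list has 4 of 18 in each direction.

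Markers of cell types rose in some lists and fell in others, and their counts stand against 20.5% higher and 11.1% lower over all genes. Of 8 embryonic stem cell markers 0 rose and 6 fell (75%), with summed levels of 1324 to 2102 FPKM in the knockout and 4291 to 4423 FPKM in the control. Of 8 trophoblast markers 5 rose (62.5%) and 0 fell, with sums of 105 to 191 FPKM in the knockout and 35.0 to 44.6 FPKM in the control, and Cdx2 is also on this list. Of 6 endoderm markers 4 rose (66.7%) and 0 fell, with sums of 8.75 to 9.91 FPKM in the knockout and 2.35 to 3.85 FPKM in the control.

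Of 6 neuroectoderm markers 3 rose (50%) and 1, Olig2, fell. Their sums were 23.5 to 26.97 FPKM in the knockout and 39.5 to 41.1 FPKM in the control, and Olig2 alone had 6.07, 3.43 and 2.82 FPKM in the knockout libraries, against 33.75, 31.76 and 32.72 FPKM in the control libraries. The 5 markers without Olig2 ran the other way, with sums of 20.04 to 21.03 FPKM in the knockout and 7.36 to 8.26 FPKM in the control. Of 6 mesoderm markers 0 rose and 2 fell (40.0% of the 5 tested), with Msgn1 listed at 0 in all libraries and sums of 2.36 to 2.90 FPKM in the knockout and 4.19 to 5.34 FPKM in the control. Most of that sum was Kdr, and without it the sums overlapped, at 0.86 to 1.18 FPKM in the knockout and 0.92 to 1.38 FPKM in the control.

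Of 11 fibroblast markers, which feeder cells would carry, 3 rose (27.3%) and 1, Thy1, fell (9.09%). Their sums were 13.4 to 15.9 FPKM in the knockout and 15.4 to 22.1 FPKM in the control, and Thy1 alone had 8.01, 7.26 and 7.76 FPKM in the knockout libraries, against 11.65, 17.95 and 14.67 FPKM in the control libraries. The 10 markers without Thy1 were higher in the knockout, with sums of 6.16 to 8.01 FPKM against 3.73 to 4.15 FPKM in the control. Those that rose were Twist1, Dcn and Col3a1, and 9 of the 11 stayed below 1 FPKM in every library. The part of these cell types in the Hox levels was not tested.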

How the data were processed

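Total RNA of mouse embryonic stem cells was made into TruSeq libraries and sequenced on a Novaseq6000, per the labels' protocols. HISAT2 2.1.0, RSEM, DESeq 1.26.0, FastQC and the build GRCm38.p6 are named, without roles, per the submitters' processing notes. The annotation release is not given in the sources used here, nor is use of strand. The authors' deposited values were read as FPKM because of how they behave: they are not whole, sum to 689694 to 792839 per library, and 85.7% to 90.3% of low values of single-transcript genes lie within 0.15 of a whole fragment once length is corrected by 270 bases, which gave the depth. That share was too low to recover reads, so counts were not modelled.

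The tables have 52872 rows each, of which 51912 are Ensembl genes. The 958 loci assembled from reads and 2 rows without an identifier were not used. Symbols came from GENCODE M21, which matched 51719 genes. The 25947 genes above 0 in at least 1 library were fitted with limma 3.58.1 in R 4.3.3 on log2(FPKM + 1) (empirical Bayes with a mean trend, two-sided, Benjamini-Hochberg over all genes). The design named a count test had the files held counts. The procedure was tested on simulated data. Fold changes are knockout minus control. Per-library values are given, in each cluster, for the 3 called members with the smallest p and the one with the highest mean, and further members are described by their values or ranges. From each other list the 3 called genes with the smallest p are named. 1 member counts in every total, but its own values are not reported here. Hotairm1, Skap2 and the cell type markers named fall outside this rule and were named after their values were seen, as were the marker sums without the highest marker. Pairs of p-values stand in the order of the genes or libraries before them. Members and lists were chosen with earlier results of these data known.

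Alternatives were median-ratio, upper-quartile and equal-sum scaling, a pseudocount of 0.1, a filter of 1 FPKM in 3 libraries, a mean of at least 0.1 FPKM, a replicate block, omission of single libraries, and members under 10% overlap. Deviations of same-numbered libraries correlated at -0.016, 0.030 and 0.034, so the numbers were not taken to pair samples. The labels give no sequencing batch or date.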

Additional observations from a re-analysis of the deposited data

How the results depend on the processing

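Across all alternatives 0 Hox genes were called lower, and 15 of the 23 called members were called in every alternative in which they were tested. The other 8 were Hoxa3, Hoxa9, Hoxb6, Hoxb13, Hoxc5, Hoxc6, Hoxc9 and Hoxd10. The numbers do not pair the libraries, and with the replicate block 17 Hox genes were higher, with 1 cofactor gene lower, 2 retinoic acid genes higher and 5 Polycomb genes higher. Leaving out 1 library at a time gave 16 to 24 Hox genes higher, with 2 to 5 in Hoxd, 2 to 5 anterior and 7 to 12 posterior. The same runs gave 3468 to 6027 genes higher over all genes, 1 to 2 cofactor genes lower, 1 to 3 retinoic acid genes higher and 4 to 7 lower, 4 to 10 Polycomb genes higher, 2 to 5 genes within the clusters higher, and 3 to 6 flanking genes higher and 1 to 4 lower. The lowest count over all genes came without control replicate 1. The filter of 1 FPKM admits members through the knockout alone, and tested 5 Hox genes, of which 5 were higher (2 in Hoxa and 1 in each other cluster; 1 anterior, 1 central, 3 posterior), with 2 Cdx and ParaHox genes and 1 gene within the clusters higher. Under it the median log2 fold changes were 1.34 for all Hox genes, 1.55 for Hoxa, 1.29 for Hoxb, 1.51 for Hoxc and 1.01 for Hoxd. A pseudocount of 0.1 gave 27 Hox genes higher, 5 of them anterior, and medians of 1.53 for all, 1.99 for Hoxa, 1.53 for Hoxb, 1.42 for Hoxc and 0.85 for Hoxd. A mean of at least 0.1 FPKM left 3 Hoxc members higher, with medians of 0.43 for all, 0.58 for Hoxb, 0.35 for Hoxc and 0.35 for Hoxd. Members under 10% overlap gave 4 higher in Hoxa and 1 anterior. Median-ratio scaling gave a summed ratio of 6.83, a Hoxd median of 0.22, 2 retinoic acid genes higher and 5 flanking genes lower, and equal sums gave a summed ratio of 8.53 and 7 flanking genes higher. Without single libraries the Hoxc median ranged from 0.18 to 0.26 and the Hoxd median from 0.18 to 0.31. The log2 fold change of Hoxd11, not called in any setting, was -0.0498 without knockout replicate 3 and -0.019 without control replicate 1, in a range up to 0.13 when single libraries were left out. The cause was not tested for any of these shifts beyond the fewer genes or libraries that a setting leaves. Depth limits members near 0.02 FPKM, about 1 fragment, such as Hoxa4, Hoxb5 and Hoxc8.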
